A study of Mus musculus with 8 samples.

Results

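The let-7 family was represented by 10 mature miRNAs of the 1978 mouse miRNAs counted, taken by name: the 5p strands of let-7a, let-7b, let-7c, let-7d, let-7e, let-7f, let-7g, let-7i and miR-98, and the 3p strand of let-7d. All 10 were among the 180 miRNAs tested for differences, those detected in no fewer than 2 libraries of each compartment. The small RNA libraries came from cultured 3A cells, mouse hepatocytes that form no tumours, and from the extracellular vesicles (EVs) recovered by ultracentrifugation from the medium of these cultures, in which the bovine serum had been depleted of EVs. The cells had been infected with a pSUPER retroviral vector and selected with puromycin, and expressed either a control shRNA (shCTR) or an shRNA against PCBP2 (shPCBP2), an RNA-binding protein of the KH-domain family. The study asked whether PCBP2 holds miRNAs with a given sequence motif inside the cell. Small RNA libraries do not measure the PCBP2 mRNA itself, and the study reported the silencing from RT-qPCR and western blot. There were 2 replicates of each of the 4 groups (cells and EVs with either shRNA), which the study's methods call biological replicates without saying how the cultures were separated, and p-values measure the spread between these libraries.

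let-7 miRNAs are loaded onto Argonaute proteins and repress mRNAs through pairing of the seed, the bases near the 5′ end, with sites in the target. They accumulate as cells differentiate, their precursors are held back by the protein LIN28 in early embryonic and many tumour cells, and their known targets include Hmga2, Myc and the Ras genes. The family is encoded by several hairpins scattered over the genome, some in clusters, and the strand kept is nearly always the 5p strand. The mature sequences are shared widely among mammals, so a count does not tell RNA of the mouse cells from RNA of the serum.

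The mature sequences of the 10 members, as given by RefSeq for GRCm38.p6, are shown because several results below contrast members that differ by a single base. Capitals mark the seed, bases 2 to 8 from the 5′ end.
mmu-let-7a-5p: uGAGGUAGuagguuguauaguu
mmu-let-7b-5p: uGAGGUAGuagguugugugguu
mmu-let-7c-5p: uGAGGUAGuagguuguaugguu
mmu-let-7d-5p: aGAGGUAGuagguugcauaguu
mmu-let-7e-5p: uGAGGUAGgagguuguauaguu
mmu-let-7f-5p: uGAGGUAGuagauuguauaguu
mmu-let-7g-5p: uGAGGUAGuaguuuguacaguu
mmu-let-7i-5p: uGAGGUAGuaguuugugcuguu
mmu-miR-98-5p: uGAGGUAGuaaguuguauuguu
mmu-let-7d-3p: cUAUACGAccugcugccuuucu

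The 9 5p members shared the seed GAGGUAG, which 11 of 1679 RefSeq mature mouse miRNAs carry, while let-7d-3p was the only mature miRNA with its seed. Counting positions from the 5′ end and naming the base of let-7a-5p first, let-7c-5p differed from let-7a-5p by A19G, let-7e-5p by U9G and let-7f-5p by G12A. let-7b-5p differed by A17G and A19G, let-7d-5p by U1A and U16C, let-7g-5p by G12U and U18C, and miR-98-5p by G11A and A19U. let-7i-5p was the most distant from let-7a-5p, with G12U, A17G, U18C and A19U. Of the 36 pairs of 5p members, 4 differed at 1 position and 10 at 2 positions, and how many mismatches the read counting allowed is not given in the sources used here, so the split of reads between close members is uncertain.

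let-7a-5p, let-7c-5p and let-7f-5p can each come from 2 hairpins, and their counts do not tell which. In GRCm38 with the GENCODE annotation, let-7a-1 (chr13:48538179-48538272), let-7f-1 (chr13:48537829-48537917) and let-7d (chr13:48536012-48536114) lie on the minus strand within 2261 bases of each other, in exons of the lincRNA 6720427I07Rik. let-7c-2 (chr15:85706603-85706697) and let-7b (chr15:85707319-85707403) lie on the plus strand in exons of Lncppara, and let-7f-2 (chrX:151912346-151912428) and miR-98 (chrX:151913214-151913321) on the plus strand in an intron of Huwe1. The other hairpins lie on the plus strand in introns: let-7a-2 (chr9:41536716-41536811) in 3110039I08Rik, let-7c-1 (chr16:77599657-77599750) in Mir99ahg, let-7e (chr17:17830352-17830444) in Spaca6 and let-7g (chr9:106178840-106178927) in Wdr82. The exception is let-7i (chr10:122985640-122985724), which overlaps an exon of the transcribed pseudogene D630033A02Rik on the minus strand.

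Mouse miRNAs received between 8745848 and 12732173 reads in the cell libraries and between 503070 and 687592 in the EV libraries, and the nematode miRNA cel-miR-39, added to the RNA as a spike-in, between 15734400 and 37548200. miR-122-5p, the most abundant miRNA of adult hepatocytes in the liver, had only 356 to 485 reads in the cell libraries and 795 to 2327 in the EV libraries. A level is given below as reads per 1000000 spike-in reads, which relates it to the RNA sample analysed and not to a cell or a vesicle. Differences are log2 ratios with standard errors from edgeR's quasi-likelihood test, with library sizes set to the spike-in count unless stated otherwise and with Benjamini-Hochberg adjustment of the p-values across the 180 tested miRNAs. A difference was called at an adjusted p under 0.05.

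The let-7 family made up between 24.1% and 27.7% of the miRNA reads of the cells. The 9 5p members together took 24.1% and 25.7% of mouse miRNA reads in the shCTR cell libraries, 26.7% and 27.7% in shPCBP2 cells, 18.5% and 17.0% in shCTR EVs, and 19.0% and 18.1% in shPCBP2 EVs. Every cell library was above every EV library in this share, by a margin larger than the spread within either compartment, and no test was run on it. Relative to the spike-in, the level of the family was 171900, 191200, 132100 and 196400 in the same 4 cell libraries and 4591, 3607, 3135 and 2997 in the EV libraries.

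let-7g-5p was the most abundant member in 7 of the 8 libraries and ranked between 3 and 7 among all mouse miRNAs in each. In the second shPCBP2 EV library it had 22240 reads and let-7a-5p 22696. Its level was 29630 and 32140 in shCTR cells, 25460 and 36970 in shPCBP2 cells, 1140 and 832.8 in shCTR EVs, and 899.5 and 731.4 in shPCBP2 EVs. In the shCTR cell group the order of the mean levels was let-7g-5p (30880 ± 1775, SD, n = 2), let-7f-5p (28820 ± 3444), let-7a-5p (26700 ± 2927), let-7b-5p (25940 ± 219), let-7c-5p (25820 ± 2468), let-7d-5p (18140 ± 884), let-7e-5p (11580 ± 1450), let-7i-5p (10920 ± 714), miR-98-5p (2734 ± 211) and let-7d-3p (37.0 ± 10.0). Neighbours among the 5 most abundant members differed by less than the larger of their SDs, as did let-7e-5p and let-7i-5p, while the steps from let-7c-5p to let-7d-5p, from let-7d-5p to let-7e-5p, from let-7i-5p to miR-98-5p and from miR-98-5p to let-7d-3p exceeded the spread.

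The order differed in EVs. In shCTR EVs let-7g-5p (986 ± 217, SD, n = 2) and let-7a-5p (982 ± 222) stood level at the top, followed by let-7f-5p (560 ± 71.1), let-7d-5p (433 ± 85.8), let-7c-5p (418 ± 60.5), let-7b-5p (366 ± 16.0), let-7i-5p (167 ± 42.8), let-7e-5p (142 ± 1.41), miR-98-5p (44.9 ± 17.0) and let-7d-3p (14.1 ± 10.7). The neighbours let-7d-5p, let-7c-5p and let-7b-5p did not differ beyond their replicate spread, nor did let-7i-5p and let-7e-5p. Mature miRNAs are of like length, here 22 bases in all 10 members, so levels were compared between members without a length correction, although the efficiency of ligation and amplification can differ between sequences.

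**Figure D1:**
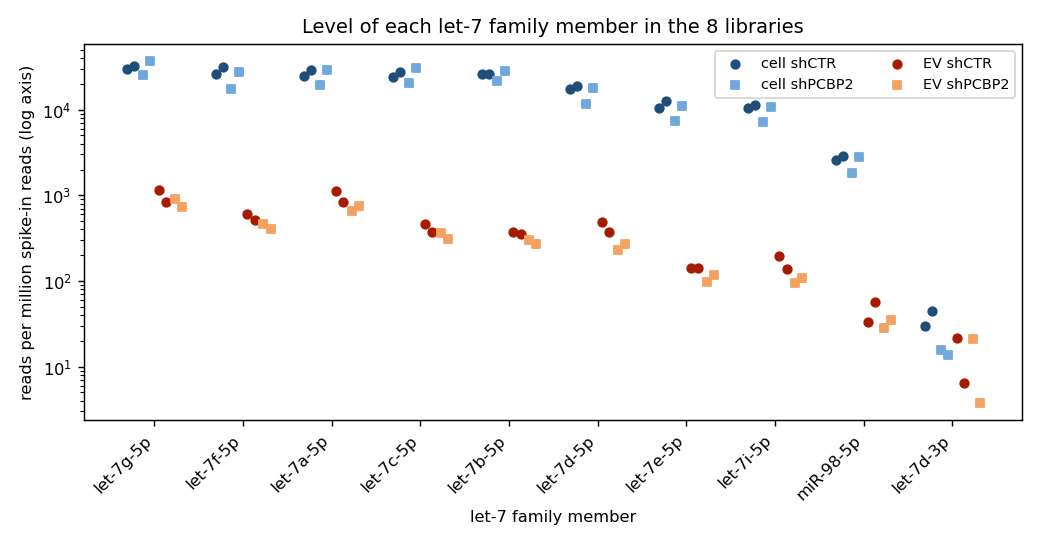
Level of each let-7 member in the 8 libraries, in reads per 1000000 spike-in reads on a log axis, with 1 point for each library, coloured by group. Cell libraries lie far above EV libraries for the 9 5p members, and the points of let-7d-3p from both compartments overlap.

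The 5p members were far lower in EVs than in cells relative to the spike-in. In shCTR all 9 were called lower, from let-7a-5p (log2 −4.77 ± 0.30, 27.2-fold lower, adjusted p = 1.77e-05, edgeR) to let-7e-5p (−6.35 ± 0.29, 81.6-fold lower, adjusted p = 7.46e-06), with 59.4% of the tested miRNAs called lower and 6.67% called higher in that comparison. In shPCBP2 the same 9 were called lower, from let-7a-5p (−5.11 ± 0.31, 34.5-fold lower) to let-7i-5p (−6.47 ± 0.33, 88.9-fold lower), with a background of 60.0% called lower and 7.78% called higher. The median of the 5p members was −5.93 in shCTR and −6.19 in shPCBP2, against −4.93 and −4.90 over all 180 miRNAs. let-7d-3p was not called, at −1.40 ± 1.09 (95% interval −4.06 to 1.27, adjusted p = 0.278) in shCTR and −0.25 ± 1.07 (−2.87 to 2.37, adjusted p = 0.842) in shPCBP2.

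The size of this difference rests on the spike-in, since all EV libraries held much less mouse miRNA per spike-in read. With the total miRNA count as library size, which compares shares of the miRNA pool, the median of the 5p members was −0.91 in shCTR and −0.99 in shPCBP2, while that of all tested miRNAs was 0.06 and 0.30. On this scale 6 and 7 members were called lower, against 17.8% and 19.4% of the tested miRNAs. let-7a-5p (0.21 and 0.09) and let-7g-5p (0.01 and −0.07) were not called in either condition, and let-7e-5p (−1.35 and −1.23) and let-7b-5p (−1.16 and −1.29) were called lower in both. let-7a-5p and let-7g-5p also lost the call in shCTR with TMM and with median-of-ratios factors, where both lay between −0.21 and 0. let-7d-3p was called higher on this scale, at 3.54 (adjusted p = 0.0438, edgeR) and 4.88 (adjusted p = 0.0135), as were 23.9% and 30.0% of the tested miRNAs.

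**Figure D2:**
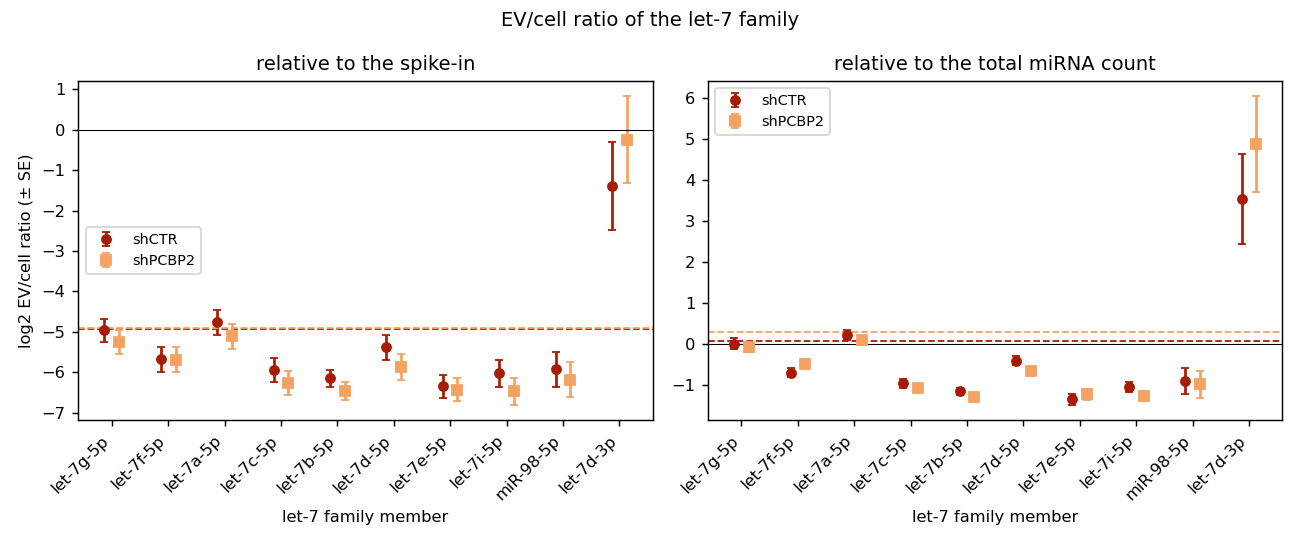
log2 EV/cell ratio of each member in shCTR (circles) and shPCBP2 (squares), relative to the spike-in on the left and to the total miRNA count on the right, with error bars of the standard error from edgeR and dashed lines at the medians of all 180 tested miRNAs in each condition. On the left the 9 5p members lie between −4.77 and −6.47 and let-7d-3p at −1.40 and −0.25, and on the right let-7d-3p lies at 3.54 and 4.88, above the 5p members.

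The 5p members did not keep the same proportions in EVs as in cells. let-7a-5p and let-7g-5p took a larger part of the family in every EV library than in any cell library, and let-7b-5p, let-7c-5p, let-7e-5p and let-7i-5p a smaller part. How many of all tested miRNAs also lacked overlap on this scale was not counted. In the edgeR fit on this scale, 40.0% of them were called higher in EVs and 14.4% lower, so differences between the compartments were common. These shares are percentages of the summed 5p reads of a library, so they need no spike-in, and since they sum to a whole a rise of some members lowers the others.

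let-7a-5p, the reference for the substitutions above, made up 14.3% and 15.1% of the 5p reads in shCTR cells, 14.6% and 15.0% in shPCBP2 cells, 24.8% and 22.9% in shCTR EVs, and 21.1% and 24.9% in shPCBP2 EVs. For let-7g-5p, encoded in an intron of Wdr82, the shares were 17.2% and 16.8%, 19.3% and 18.8%, 24.8% and 23.1%, and 28.7% and 24.4% in the same order. Both were higher in all 4 EV libraries, with no overlap between the compartments. Fitted with edgeR on library sizes set to the 5p total, and averaged over both shRNA conditions, EVs exceeded cells by 0.67 ± 0.08 on the log2 scale for let-7a-5p (1.59-fold, adjusted p = 0.000353) and by 0.49 ± 0.07 for let-7g-5p (1.40-fold, adjusted p = 0.00136). In this fit the median of all tested miRNAs was 0.66, and 40.0% of them were called higher. let-7a-5p thus lay near that median and let-7g-5p below it.

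let-7b-5p took 15.2% and 13.5% of the 5p reads in shCTR cells, 16.4% and 14.6% in shPCBP2 cells, 8.21% and 9.83% in shCTR EVs, and 9.50% and 8.95% in shPCBP2 EVs. let-7c-5p, which shares a host transcript with let-7b-5p at let-7c-2, took 14.0% and 14.4%, 15.6% and 15.8%, 10.0% and 10.4%, and 11.5% and 10.4%. All 4 EV libraries were lower than all 4 cell libraries for both. The fitted differences were −0.71 ± 0.09 for let-7b-5p (1.63-fold lower, adjusted p = 0.000606, edgeR) and −0.50 ± 0.06 for let-7c-5p (1.41-fold lower, adjusted p = 0.000462).

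let-7e-5p, encoded with miR-99b and miR-125a, took 6.14% and 6.59% in shCTR cells, 5.58% and 5.67% in shPCBP2 cells, 3.07% and 3.96% in shCTR EVs, and 3.14% and 3.88% in shPCBP2 EVs. let-7i-5p took 6.06% and 5.98%, 5.43% and 5.50%, 4.30% and 3.80%, and 3.01% and 3.59%. Both were lower in EVs without overlap, by −0.77 ± 0.11 (1.70-fold lower, adjusted p = 0.00121, edgeR) for let-7e-5p and −0.65 ± 0.08 (1.57-fold lower, adjusted p = 0.00064) for let-7i-5p.

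The remaining 5p members overlapped between the compartments. let-7d-5p ranged from 8.73% to 10.2% of the 5p reads in cells and from 7.28% to 10.8% in EVs (−0.02 ± 0.08, 95% interval −0.23 to 0.18), and let-7f-5p from 13.2% to 16.4% and from 13.3% to 14.9% (−0.07 ± 0.07, −0.23 to 0.09). miR-98-5p ranged from 1.37% to 1.51% in cells and from 0.715% to 1.58% in EVs, and its difference of −0.41 ± 0.25 (−1.03 to 0.21, adjusted p = 0.236) was not called. The second shCTR EV library held the highest share of miR-98-5p, and without it the difference was −0.75 (adjusted p = 0.00515, edgeR), with 16.1% of the tested miRNAs called lower. Counting let-7d-3p, described below, 3 members were called higher and 4 lower relative to the 5p total, with 40.0% of the tested miRNAs called higher and 14.4% called lower.

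**Figure D3:**
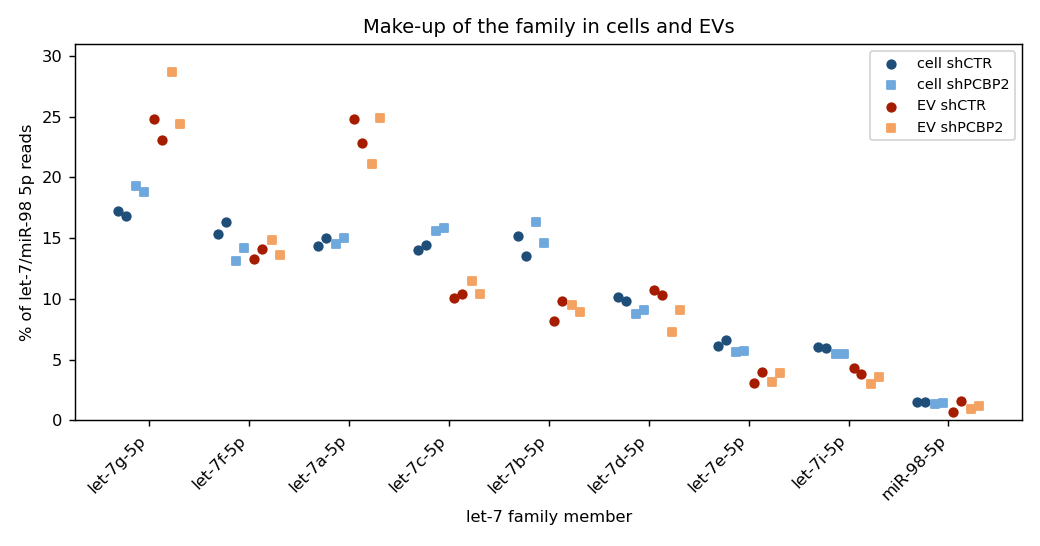
Share of each 5p member in the summed 5p reads of a library, in percent, with 1 point for each of the 4 cell and 4 EV libraries. let-7a-5p and let-7g-5p lie higher in EVs, let-7b-5p, let-7c-5p, let-7e-5p and let-7i-5p lower, and let-7d-5p, let-7f-5p and miR-98-5p overlap.

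Members that differ at a single position were distributed differently. The ratio of let-7a-5p to let-7c-5p (A19G) was 1.02, 1.04, 0.935 and 0.949 in the 4 cell libraries, those with shCTR first, and 2.47, 2.2, 1.84 and 2.39 in the 4 EV libraries in the same order. The ratio of let-7a-5p to let-7e-5p (U9G) ranged from 2.28 to 2.64 in cells and from 5.78 to 8.08 in EVs, and that of let-7a-5p to let-7f-5p (G12A) from 0.921 to 1.11 and from 1.42 to 1.87. In these 3 pairs the compartments did not overlap. All 3 contain let-7a-5p, so they share its larger part of the family in EVs and are not separate results. How often the ratio of other miRNAs separated between the compartments was not counted. The ratio of let-7b-5p to let-7c-5p (G17A) ranged from 0.924 to 1.08 in cells and from 0.818 to 0.945 in EVs and did overlap. let-7a-5p and let-7b-5p, which differ by A17G and A19G, had a ratio of 0.890 to 1.12 in cells and of 2.22 to 3.02 in EVs.

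Members of a genomic cluster did not all shift the same way. Of the cluster on chromosome 13, which gives let-7a-5p, let-7f-5p and let-7d-5p, only let-7a-5p took a larger share in EVs, although let-7a-2 and let-7f-2 lie elsewhere and add to the counts of let-7a-5p and let-7f-5p. The members let-7b-5p and let-7c-5p, from the cluster on chromosome 15, both took smaller shares, and let-7c-1 on chromosome 16 adds to the count of let-7c-5p.

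The mature sequences were searched on their own strand for AUUA and AUUG, core sequences that the study ties to retention in cells. In the study the retention motif alone did not allow PCBP2 binding, which also needed the export motif bound by the protein SYNCRIP. The longer form of the retention motif that the study also used was not searched here. The study's export motif, which allows several bases at each position, was not searched in full. A search for GGCU, a stretch that this motif allows, found it in no member. It occurred in 13.3% of the RefSeq mature mouse miRNAs and in 15.4% of the tested miRNAs with a sequence. This does not settle whether a member carries the export motif. AUUG occurred in let-7f-5p from base 12 and in miR-98-5p from base 17, and in no other member, and AUUA occurred in none. Among 1679 RefSeq mature mouse miRNAs, AUUG was found in 6.79% and AUUA in 2.50%, and among the 156 tested miRNAs with a sequence AUUG was found in 25 and AUUA in 0.

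let-7d-3p, the strand paired with let-7d-5p in the let-7d hairpin, was the only member whose EV counts were of the size of its cell counts. It had 533 and 694 reads in shCTR cells, 277 and 246 in shPCBP2 cells, 601 and 169 in shCTR EVs, and 790 and 114 in shPCBP2 EVs. The EV replicates differed 3.56-fold in shCTR and 6.93-fold in shPCBP2, more than any 5p member, for which replicate counts differed at most 1.63-fold.

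As a percentage of the let-7d-5p count of the same library, let-7d-3p was 0.171% and 0.235% in shCTR cells, 0.136% and 0.0777% in shPCBP2 cells, 4.38% and 1.74% in shCTR EVs, and 9.23% and 1.38% in shPCBP2 EVs. All 4 EV libraries were above all 4 cell libraries, and let-7d-5p remained the more abundant strand in each. The log2 ratio of 3p to 5p was −9.44 ± 0.67 (SD, n = 4) in cells and −4.99 ± 1.26 (SD, n = 4) in EVs. The difference of 4.45, or 21.9-fold, had p = 0.0286 in a two-sided exact permutation test, the smallest p that 4 against 4 libraries can give, and both shRNA conditions entered each side. With any single library left out the difference was between 3.93 and 4.85, with an exact permutation p of 0.0571, the smallest then possible. At the pooled ratio of the cells, 0.155%, the EV libraries would have held between 12.9 and 21.3 reads of let-7d-3p.

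**Figure D4:**
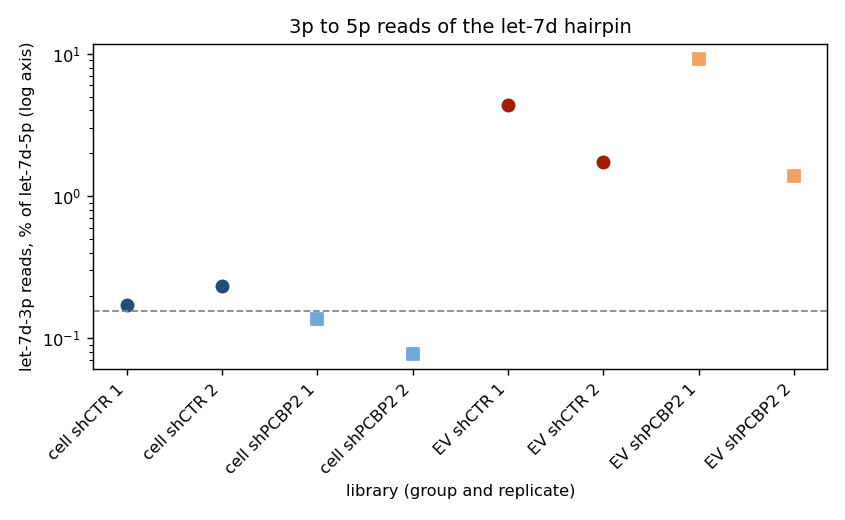
let-7d-3p count as a percentage of the let-7d-5p count in each of the 8 libraries, on a log axis, with a dashed line at the pooled ratio of the cell libraries, 0.155%. The cell libraries lie between 0.0777% and 0.235% and the EV libraries between 1.38% and 9.23%.

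The other 3p strands of the family had few reads in cells and none in EVs. Of the 11 further rows named as 3p strands of let-7 or miR-98 hairpins, 9 had reads in cells, the highest count being 307 for let-7e-3p, and all 11 had 0 reads in the 4 EV libraries. let-7e-3p was 0.058% to 0.163% of let-7e-5p in the cell libraries, and its 0 reads beside 14857 of let-7e-5p over the 4 EV libraries allow up to 0.0202% by counting error, taking 3 reads as the limit of a count of 0. By counting error alone its ratio in EVs was below that of every cell library, the direction opposite to that of let-7d-3p. The spread between EV libraries does not enter this limit, and no test between libraries was run. For let-7a-1-3p, too, the limit of 0.00298% of let-7a-5p lay below the lowest cell library (0.0061%), although its reads may come from let-7c-2. For the other 7 strands with reads the limit was not below every cell library, so that this comparison left them undecided. Some of them had 0 reads in a cell library, which the limit cannot lie below at any depth. let-7f-1-3p would have had 12.0 EV reads at the pooled cell ratio, but its cell libraries ranged from 0.00142% to 0.0415% of let-7f-5p. The rows let-7a-1-3p and let-7c-2-3p held identical counts of 67, 91, 38 and 32 in the cell libraries, and since their sequences are the same these are the same reads. The remaining rows with the let-7 seed were let-7k, with 8 to 51 reads in cells and 1 read in all EV libraries together, and miR-1961, with 0 reads.

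PCBP2 silencing moved no member past the threshold in cells. The 5p members lay between −0.35 ± 0.25 for let-7f-5p (95% interval −0.97 to 0.27) and 0.02 ± 0.25 for let-7g-5p (−0.59 to 0.62), with a median of −0.24 against −0.49 over all tested miRNAs. let-7d-3p stood at −1.33 ± 1.09 (−3.99 to 1.33). edgeR called 0 of the 180 miRNAs in either direction, a background of 0.0%, with 25 of them and 0 members at an unadjusted p under 0.05, while DESeq2 called 18 and limma voom 16 miRNAs, none of them a member. A fit to only the 4 cell libraries called let-7d-3p lower (−1.33, adjusted p = 0.00404), against 21.7% of the tested miRNAs called lower in that fit. TMM scaling turned the fitted values of 8 5p members to above 0 and called let-7b-5p higher (0.44, adjusted p = 0.0496), the only miRNA of the 180 called higher there (0.556%). The shPCBP2 cell replicates differed 1.34-fold to 1.62-fold in the counts of the 5p members.

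In EVs, too, no member was called between shPCBP2 and shCTR, where edgeR called 5.56% of the tested miRNAs lower and 1.67% higher. All 9 5p members had fitted values below 0, with a median of −0.40 against −0.54 over all tested miRNAs. let-7d-5p had levels of 493.8 and 372.4 in shCTR EVs and of 228.0 and 272.7 in shPCBP2 EVs, and a difference of −0.79 ± 0.26 (95% interval −1.41 to −0.17, adjusted p = 0.172, edgeR). DESeq2 called it (adjusted p = 0.0259) among 13.3% of the tested miRNAs that it called lower. let-7i-5p had 197.4 and 136.9 in shCTR EVs and 94.44 and 107.7 in shPCBP2 EVs, with −0.73 ± 0.27 (−1.37 to −0.08, adjusted p = 0.222). These 2 members were below 0.05 before adjustment, as were 28 miRNAs in all that were lower and 3 that were higher. With the total miRNA count as library size, the median of the 5p members was 0.07 and the fitted values of 6 5p members lay above 0.

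The EV/cell ratio, the measure of retention in this design, also moved past the threshold for no member on PCBP2 silencing. edgeR's interaction term called 3 of the 180 miRNAs (1.67%) with a lower ratio in shPCBP2 and 1 (0.556%) with a higher ratio. The fitted values of the 5p members ranged from −0.48 ± 0.36 for let-7d-5p (95% interval −1.36 to 0.39) to −0.01 ± 0.36 for let-7f-5p (−0.88 to 0.86), with a median of −0.31 against −0.08 over all tested miRNAs. miR-98-5p, which carries AUUG as let-7f-5p does, stood at −0.26 ± 0.49 (−1.46 to 0.94), and whether PCBP2 binds either was not tested. The interval of let-7d-3p, 1.14 ± 1.52 (−2.57 to 4.85), spans changes of more than 4-fold either way, so little can be said of it at this replication. With TMM scaling let-7b-5p was called with a lower ratio (−0.54, adjusted p = 0.0406), against −0.32 ± 0.24 (−0.91 to 0.26) on the spike-in scale, and 4.44% of the tested miRNAs were called lower with TMM.

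**Figure D5:**
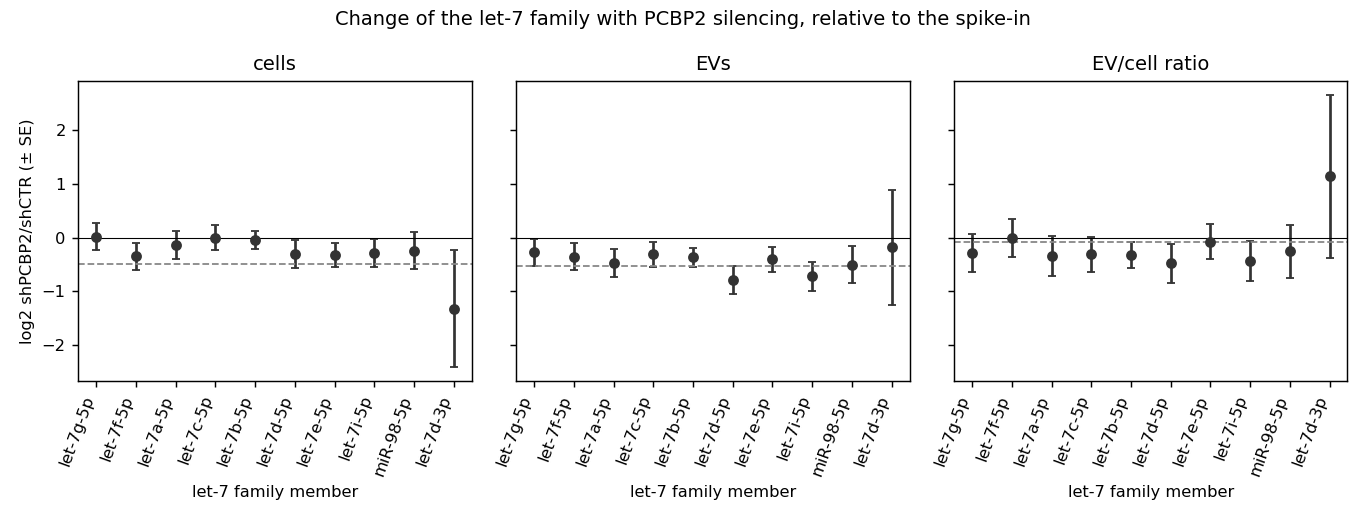
log2 differences between shPCBP2 and shCTR for each member relative to the spike-in, in cells, in EVs and for the EV/cell ratio, with error bars of the standard error from edgeR and dashed lines at the medians of all tested miRNAs. The 5p members lie between −0.35 and 0.02 in cells and below 0 in EVs, where let-7d-5p (−0.79) and let-7i-5p (−0.73) are lowest, and let-7d-3p has the widest error bars.

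Of the miRNAs often transcribed with let-7 hairpins, miR-99a-5p and miR-125a-5p stood furthest from the let-7 strands. miR-99a-5p, miR-99b-5p, miR-100-5p, miR-125a-5p and miR-125b-5p, which sit beside let-7 hairpins in the genome, were all 5 called higher in EVs than in cells relative to the let-7 5p total, at 5.17 ± 0.22, 1.06 ± 0.14, 0.94 ± 0.18, 2.79 ± 0.17 and 1.05 ± 0.13 on the log2 scale, against the 40.0% of tested miRNAs called higher. The median of all tested miRNAs on that scale was 0.66, and let-7a-5p stood at 0.67. For EVs against cells relative to the spike-in in shCTR, miR-99b-5p (−4.96), miR-100-5p (−4.73) and miR-125b-5p (−4.68) lay close to let-7a-5p (−4.77) and let-7g-5p (−4.97). miR-125a-5p (−3.14) and miR-99a-5p (−0.48) lay above them. miR-99a-5p, whose hairpin lies by let-7c-1, had 2981, 1895, 1354 and 1946 reads in cells and 2780, 2768, 2961 and 1910 in EVs, so that its raw counts overlapped between compartments, while let-7c-5p had at least 362921 reads in each cell library and at most 13491 in each EV library. None of the 5 was called between shPCBP2 and shCTR in cells, in EVs or for the EV/cell ratio.

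The miRNAs outside the family whose profile over the 8 libraries was closest to that of the summed 5p members were miR-103-3p, miR-224-5p, miR-10a-5p, miR-20a-5p and miR-23b-3p. Their root mean square differences from it, on the log2 scale relative to the spike-in and after centring, were 0.11, 0.13, 0.17, 0.17 and 0.19, against a median of 0.99 for the 170 tested miRNAs outside the family. miR-103-3p, the closest, had 481733 to 691726 reads in cells and 17660 to 21854 in EVs.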

How the data were processed

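Small RNA was sequenced from 4 cell and 4 EV libraries of 3A hepatocytes. After adapter and quality trimming, the authors mapped forward reads with mirPRo and Novoalign against hairpins from miRBase and deposited raw, unnormalized counts per mature miRNA. The largest counts, including the spike-in but no member, are printed rounded. The table held 1978 mouse rows and 2 rows of cel-miR-39, and no columns were left out. Groups and replicate numbers were taken from the sample titles, whose numbering of the shPCBP2 replicates differs from that of the descriptions.

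Differences were fitted with edgeR 4.0.16 (R 4.3.3) over all 8 libraries with terms for compartment, shRNA and the interaction of both, a prior count of 0.125 and library sizes set to the spike-in count. A second fit used the summed 5p counts as library size. Intervals are 95% intervals with 6.10 degrees of freedom, and standard errors from the F statistic are approximate. Alternatives used DESeq2 1.42.0, limma 3.58.1, other scalings and filters. The exact permutation test was run with scipy 1.17.1. The edgeR fit was also run on simulated data, where the only check was the size of the recovered change at a dispersion below the estimated one. That check did not cover the rate of false calls. Genes named are all 10 members, the 5 miRNAs nearest to the family's profile, and fixed lists of cluster neighbours, other 3p strands and same-seed miRNAs. Members and lists were chosen with earlier results of these data known. Reads lacked molecular identifiers, so floors cover counting error only.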

Additional observations from a re-analysis of the deposited data

How the results depend on the processing

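Mouse miRNA reads were fewest in EVs, where let-7d-3p had 114 to 790 reads and the other 3p strands none. With 2 libraries a group, 1 library could decide a sign. All values are log2 differences, and the cause of each change was not tested. For EV against cell, the 5p median was −1.14 (shCTR) and −1.60 (shPCBP2) with TMM, −1.10 and −1.40 with median-of-ratios, and −0.91 and −0.99 with the total count. let-7d-3p reversed to 3.35 and 4.18, 3.32 and 4.39, and 3.54 and 4.88. With the total count let-7a-5p reversed to 0.21 and 0.088, and let-7g-5p to 0.0082 in shCTR. Of the 9 5p members called lower, 6 to 7 were called lower in shCTR and 7 to 9 in shPCBP2 under these scalings, and 9 members were called under the other filters, tools and the replicate block.

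For shPCBP2 against shCTR in cells, TMM gave 0.34, 0.44, 0.47, 0.16, 0.15, 0.12, 0.19 and 0.22 for let-7a, b, c, d, e, f, i and miR-98 5p, with 1 member called. Median-of-ratios gave 0.26, 0.36, 0.39, 0.081, 0.071, 0.036, 0.11 and 0.14. The total count reversed let-7a, b, c and miR-98 5p to 0.13, 0.24, 0.27 and 0.021, limma voom let-7g-5p to −0.0084, and only the 4 libraries compared gave 1 call. In EVs the 5p median was −0.12 with TMM (let-7d-3p 0.056 and let-7g-5p 0.0015), −0.011 with median-of-ratios (let-7b, c, f and g 5p 0.015, 0.078, 0.033 and 0.12, and let-7d-3p 0.21) and 0.066 with the total count (let-7a, b, c, e, f and g 5p 0.0089, 0.10, 0.17, 0.066, 0.12 and 0.21, and let-7d-3p 0.35). DESeq2 called 1 member there. For the EV/cell ratio TMM called 1 member, the total count reversed let-7e-5p to 0.12 and let-7f-5p to 0.21, and limma voom let-7f-5p to 0.031.

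Relative to the 5p total, the 5p median of −0.41 was −0.50 with limma voom and −0.20 with the geometric mean of the 5p counts, an alternative chosen after seeing the data, which reversed let-7d-5p to 0.21 and let-7f-5p to 0.16. Each of the 7 called members was called under every alternative run on that fit, and omitting the second EV shCTR library added miR-98-5p.

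Leaving out single libraries, that median ranged from −0.51 to −0.18, let-7d-5p from −0.11 to 0.055, and the let-7d arm ratio from 3.93 to 4.85, with p = 0.0571 in the exact permutation test, the smallest then possible. In cells, let-7a, b, c, g and miR-98 5p ranged from −0.47 to 0.14, −0.26 to 0.14, −0.33 to 0.26, −0.28 to 0.26 and −0.60 to 0.039. For the EV/cell ratio, let-7c, e, f, g and miR-98 5p ranged from −0.58 to 0.013, −0.35 to 0.25, −0.31 to 0.37, −0.53 to 0.0045 and −0.60 to 0.19, and let-7d-3p from −0.58 to 2.26. let-7d-3p ranged from −1.97 to 0.51 for EV against cell in shPCBP2 and from −1.91 to 0.93 for silencing in EVs. Deviations of libraries with the same title number correlated between −0.08 and 0.09, which gave no sign of pairing by that number. Pairing was not excluded, since the descriptions number the shPCBP2 libraries differently. With the replicate block the 5p median relative to the 5p total was −0.46, and the number of called members changed in no comparison.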
